A study of Mus musculus with 6 samples.

Results

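The 6 genes described here encode the classical platelet-derived growth factor (PDGF) system: the ligands Pdgfa, Pdgfb, Pdgfc and Pdgfd and the receptors Pdgfra and Pdgfrb. They were taken by symbol from the 31055 features counted in single cells of the mouse aortic root and ascending aorta, where each of the 6 symbols matched 1 feature. The 24972 cells that passed the quality filter held 22136 UMIs of Pdgfa, 700 of Pdgfb, 1636 of Pdgfc, 18040 of Pdgfd, 22740 of Pdgfra and 15073 of Pdgfrb. A UMI (unique molecular identifier) stands for 1 captured transcript.

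PDGFs are secreted dimers that activate receptor tyrosine kinases on mesenchymal cells. PDGF-A and PDGF-C act mainly through the alpha receptor and PDGF-D mainly through the beta receptor, whereas PDGF-B binds both; PDGF-C and PDGF-D leave the cell as latent proteins and need proteolytic cleavage. In vessel walls, endothelial PDGF-B is known for recruiting mural cells that carry the beta receptor, and the alpha receptor is widely used as a marker of fibroblasts.

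The cells came from 6 female mice on a 129 background at 16 weeks of age. By their labels, 2 control (CTL) mice were Tgfbr1+/+, 2 further CTL mice were Tgfbr1+/+; Wnt2CRE; EGFP-L10a, a tracer of the cardiac neural crest driven by Wnt2 promoter sequences, and 2 Loeys-Dietz syndrome (LDS) mice carried the heterozygous Tgfbr1M318R/+ receptor mutation. The tissue was digested with collagenase and elastase, viable nucleated cells were sorted, and libraries were made with 10x Genomics 3' chemistry. The 6 libraries are told apart by a number on each cell barcode, and nothing pairs that number with a mouse, so no comparison of LDS with control was made, the libraries are not replicates of 1 group, and no test is given; each value stands per library.

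Libraries 1 to 6 held between 1863 and 6395 cells that passed, with 18218282 to 38105145 UMIs per library and a median of 5572 to 9838 UMIs per cell. GFP transcripts reached 157 to 263 UMIs in libraries 1 to 4 and were at 8 and 6 UMIs in libraries 5 and 6, while the labels name the tracer in 2 mice. Across libraries, 1612 barcode sequences occurred more than once, 1334 of them within libraries 1, 3, 4 and 5 and 243 within libraries 2 and 6, with a median of 13938.5 UMIs in the largest copy and 598 in the others. Removing the 1590 passing cells with such a barcode moved the median levels of the 6 genes in vascular smooth muscle cells (VSMCs) and fibroblasts to between 0.774 and 1.06 times the values given here.

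Clustering without these 6 genes and a list of their pathway gave 10376 VSMC-like cells (41.6%), 13475 fibroblast-like cells (54.0%), 505 endothelial-like cells and 544 leukocyte-like cells. At least 10% of the VSMC-like cells held each of the 7 VSMC markers, and at least 10% of the fibroblast-like cells each of the 7 fibroblast markers, at summed levels of 60755 to 67275 and 26361 to 32254 CPM, respectively; CPM are UMIs scaled to a total of 1000000 UMIs in the cells of a class and library. Fibroblast markers summed to 1409 to 3249 CPM in VSMC-like cells and VSMC markers to 1269 to 5614 in fibroblast-like cells. The endothelial-like cells of library 6 (3 cells) were left out of values per library.

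The bases before the annotated start sites of 3 ligands and 1 receptor are shown here. These ligands were higher in VSMC-like cells of every library and the receptor higher in fibroblast-like cells of every library. The same held for Pdgfb and Pdgfrb, respectively, for which no bases are shown. The bases given are RefSeq sequences of build GRCm38.p6 (mm10), written 5′ to 3′ along the strand of the gene. Capitals mark motif matches, searched on both strands. The motifs were the TATA box, with the letters TATAAA, the site of GATA factors, GATAA, and the CArG box. The GC box was searched as GGGCGG. The AP-1 site was searched as TGANTCA. For Pdgfa, chr5:138995038-138995194 on the minus strand is shown, 157 of the 250 bases before the start; the 93 bases next to the start are annotated as untranslated region of another transcript and were left out. The RefSeq table holds another Pdgfa start, inside the gene, whose window of chr5:138994282-138994531 includes exon bases and is not shown; it has a GC box from 60 to 55 bases before that start. The bases shown lie within the span of the gene and in none of its exons.
Pdgfa: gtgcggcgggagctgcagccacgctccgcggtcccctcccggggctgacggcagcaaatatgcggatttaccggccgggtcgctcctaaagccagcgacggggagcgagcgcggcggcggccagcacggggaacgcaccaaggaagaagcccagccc
Pdgfc: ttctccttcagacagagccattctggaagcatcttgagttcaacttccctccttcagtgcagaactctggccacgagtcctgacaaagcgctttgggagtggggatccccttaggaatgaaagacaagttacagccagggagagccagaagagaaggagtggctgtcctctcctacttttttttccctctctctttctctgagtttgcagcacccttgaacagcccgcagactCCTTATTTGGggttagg
Pdgfd: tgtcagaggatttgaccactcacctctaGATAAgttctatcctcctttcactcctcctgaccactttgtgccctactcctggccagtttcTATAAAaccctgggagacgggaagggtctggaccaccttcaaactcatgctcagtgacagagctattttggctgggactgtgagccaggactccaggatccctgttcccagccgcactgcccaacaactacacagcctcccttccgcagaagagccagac
Pdgfra: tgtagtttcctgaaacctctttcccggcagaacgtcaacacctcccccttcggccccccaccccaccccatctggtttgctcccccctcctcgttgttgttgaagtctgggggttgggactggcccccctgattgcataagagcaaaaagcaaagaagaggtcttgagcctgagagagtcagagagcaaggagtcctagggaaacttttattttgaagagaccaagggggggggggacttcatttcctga
The Pdgfc window is chr3:81036166-81036415 on the plus strand, the Pdgfd window chr9:6168236-6168485 on the plus strand and the Pdgfra window chr5:75152001-75152250 on the plus strand, each 250 bases long and outside the annotated gene. The Pdgfc window held a CArG box, the motif bound by serum response factor at many smooth muscle genes, from 17 to 8 bases before the start; 1.47% of 32851 windows of 250 bases before starts held one. The Pdgfd window held a TATA box from 160 to 155 and a GATA site from 222 to 218 bases before the start, found in 12.4% and 22.6% of all windows. None of the searched motifs was in the bases shown for Pdgfa and Pdgfra. However, the Pdgfa bases left out held 2 GC boxes on the strand opposite to the gene, from 93 to 81 bases before the start. GC boxes were found in 32.7% of all windows. Such a match or its absence is a description of these letters only.

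In GENCODE M21 (mm10), Pdgfa spans chr5:138976014-138997370 on the minus strand, Pdgfb chr15:79995874-80014977 on the minus strand, Pdgfc chr3:81036416-81214040 on the plus strand, Pdgfd chr9:6168584-6378850 on the plus strand and Pdgfra chr5:75152292-75198215 on the plus strand; each is protein coding. Exons of antisense genes overlap exons of Pdgfa (6330403L08Rik), Pdgfc (Gm16000) and Pdgfra (Gm42802), and how the authors' counting treated such overlaps is not stated beyond the tool's name.

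Pdgfa, the ligand of the alpha receptor, was higher in VSMC-like than in fibroblast-like, endothelial-like and leukocyte-like cells. Its level there was 200.4, 160.1, 189, 209.8, 226 and 179 CPM in libraries 1 to 6, against 64.9, 48.0, 65.5, 61.9, 64.3 and 44.4 in fibroblast-like cells. The lowest VSMC-like value lay above the highest fibroblast-like value. No share of all genes without such overlap is given, here or for the genes below. The median log2 ratio of fibroblast-like over VSMC-like cells within a library was −1.75 (range −2.01 to −1.52), and Pdgfa was lower in fibroblast-like cells in 6 of 6 libraries. Endothelial-like cells held 35.7 to 78.4 and leukocyte-like cells 14.8 to 52.1 CPM.

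A Pdgfa UMI was found in 71.9% of VSMC-like cells (95% exact binomial interval 71.0 to 72.7) and in 25.7% of fibroblast-like cells (24.9 to 26.4). Cells with at least 3000 UMIs were also thinned to 3000 UMIs. These shares were then 44.0% of 9807 VSMC-like and 14.3% of 12274 fibroblast-like cells. All further thinned shares also leave out cells with fewer UMIs. For comparison, leukocyte-like cells gave 15.6% at a median depth of 5162 UMIs, against 7204 in VSMC-like and 6130 in fibroblast-like cells. After thinning the leukocyte-like share was 9.21% of 445 cells. Of the 124 Pdgfa UMIs of leukocyte-like cells, 119 were in the cluster led by C1qb, C1qa and Lyz2, where 20.3% of cells had one. The 105 cells led by Cd3e and Trbc1 held 1 Pdgfa UMI. These and all further intervals cover counting error only. VSMC-like cells held a median of 73.6% of a library's Pdgfa UMIs (60.9% to 84.5%), a share that also moves with the number of cells of each class and their depth.

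Among the classes, a small cluster of glia-like cells had the highest Pdgfa level. Its 55 cells held 110 Pdgfa UMIs, or 510.5 CPM (420 to 615), and 56.4% of the cells had a Pdgfa UMI. The other 5 genes together gave 14 UMIs there: 5 of Pdgfb, 3 each of Pdgfc and Pdgfd, 1 of Pdgfra and 2 of Pdgfrb. Only library 5 held 20 such cells, with a level of 469 CPM, and the cluster came out only of the clustering without integration. A cluster of 17 cardiomyocyte-like cells held 5 UMIs of Pdgfa and none of the other 5 genes, and 0 of 17 cells allows a share of cells with a UMI of up to 19.5%.

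**Figure D1:**
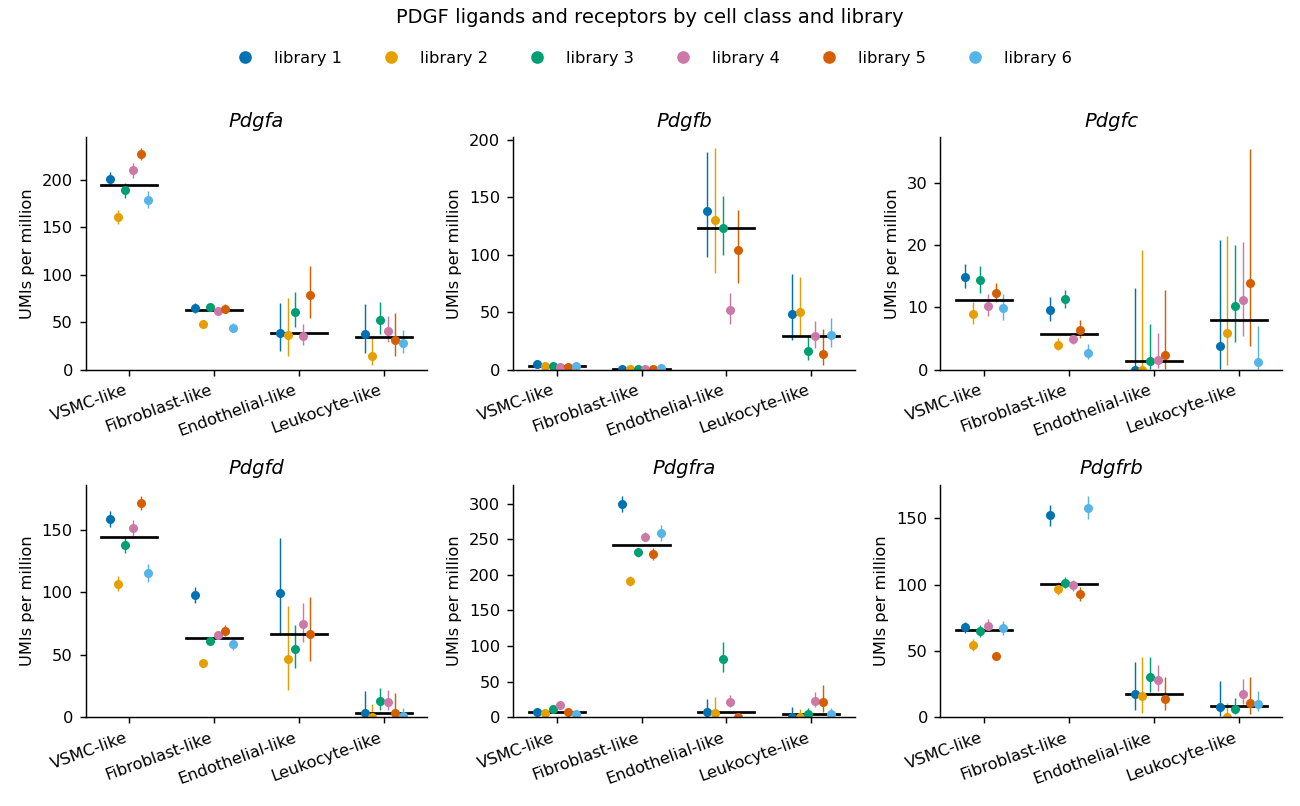
Level of each gene in CPM of the class (vertical axes, linear, from 0, differing between panels) in VSMC-like, fibroblast-like, endothelial-like and leukocyte-like cells; each point is 1 library with its 95% Poisson counting interval, black lines are medians over libraries, and library 6 is left out for endothelial-like cells. Of these 4 classes, Pdgfa and Pdgfd points are highest in VSMC-like cells, Pdgfb points in endothelial-like cells, and Pdgfra and Pdgfrb points in fibroblast-like cells.

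Pdgfd, the ligand of the beta receptor, followed the same order of VSMC-like over fibroblast-like cells but with a smaller difference. VSMC-like cells of libraries 1 to 6 held 158, 107, 138, 151, 171 and 115 CPM, and fibroblast-like cells 97.7, 43.4, 60.9, 65.9, 69.2 and 58.8. The lowest VSMC-like value again lay above every fibroblast-like value. The median log2 ratio of fibroblast-like over VSMC-like cells was −1.19 (−1.31 to −0.70), lower in 6 of 6 libraries. Endothelial-like cells, at 46.9 to 99.2 CPM in 5 libraries, overlapped fibroblast-like cells, whereas leukocyte-like cells held 0 to 12.7. Pdgfd UMIs were found in 63.4% of VSMC-like, 31.3% of fibroblast-like, 26.1% of endothelial-like and 2.94% of leukocyte-like cells, and in 35.7%, 17.0%, 17.1% and 0.899% after thinning.

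Pdgfc, a latent ligand of the alpha receptor, was detected at low levels. VSMC-like cells held 14.9, 8.95, 14.3, 10.2, 12.3 and 9.89 CPM in libraries 1 to 6, and fibroblast-like cells 9.59, 3.99, 11.3, 4.93, 6.45 and 2.71, so the ranges of the classes overlapped across libraries. Within each library, however, the VSMC-like value was the higher one. The median log2 ratio of fibroblast-like over VSMC-like cells was −0.99 (−1.85 to −0.34), at the edge of a 2-fold difference. It was −1.05 without library 1, 3 or 5 and −0.93 without library 2, 4 or 6. The 505 endothelial-like cells held 4 Pdgfc UMIs. Leukocyte-like cells held 1.26 to 13.9 CPM, overlapping both classes. A Pdgfc UMI was found in 8.38% of VSMC-like, 3.64% of fibroblast-like and 4.60% of leukocyte-like cells. After thinning these shares were 3.48% (3.12 to 3.86), 1.59% (1.38 to 1.83) and 1.57% (0.635 to 3.21). The thinned fibroblast-like share thus lay within the leukocyte-like interval, although all 26 Pdgfc UMIs of leukocyte-like cells were in the cluster led by C1qb, C1qa and Lyz2.

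Pdgfb, the ligand of both receptors, had few UMIs and was highest in endothelial-like cells. Their level in libraries 1 to 5 was 138, 130, 123, 51.9 and 104 CPM, against 2.44 to 5.30 in VSMC-like and 0.574 to 1.18 in fibroblast-like cells. No endothelial-like value came near those of the mural and stromal classes. The median log2 ratio of endothelial-like over VSMC-like cells was 5.16 (4.37 to 5.46), higher in 5 of 5 libraries; in that comparison 18.7% of 9299 genes were higher by 2-fold or more, and 33.1% by any amount, in every library. A Pdgfb UMI was found in 28.5% of endothelial-like cells (24.6 to 32.7), 2.12% of VSMC-like cells and 0.304% of fibroblast-like cells. VSMC-like cells, the more numerous class, held a median of 38.5% of a library's Pdgfb UMIs and endothelial-like cells 35.0%.

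Within the endothelial-like class, Pdgfb was present in both clusters. The cluster led by Cd36, Rbp7 and Gpihbp1, genes of capillary endothelium, held 98.3 CPM of Pdgfb (84.7 to 113) in 335 cells. The cluster led by Ccl21a, Mmrn1 and Nts, with the lymphatic genes Lyve1 and Prox1 among its leading genes, held 80.1 (63.5 to 99.7) in 170 cells. A Pdgfb UMI was found in 116 cells (34.6%) of the first cluster and in 28 cells (16.5%) of the second, which held 80 UMIs. The intervals of the CPM levels overlapped for Pdgfb, although its share of cells differed. They did not overlap for Pdgfd, which was at 89.4 (76.5 to 104) in the first cluster and 29.0 (19.4 to 41.7) in the second. Pdgfa lay the other way, at 38.2 (29.9 to 48.0) and 69.1 (53.8 to 87.4).

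Leukocyte-like cells were the second class with Pdgfb above the VSMC-like level. Their values in libraries 1 to 6 were 48.6, 50.3, 16.5, 29.0, 13.9 and 30.2 CPM, and the median log2 ratio over VSMC-like cells was 3.25 (2.27 to 4.09), higher in 6 of 6 libraries, where 19.6% of 9389 genes were higher by 2-fold or more in every library, 27.4% were higher by any amount and 22.2% were lower by 2-fold or more. By cluster, the macrophage genes C1qb, C1qa and Lyz2 led 404 cells that held 96 of the 97 Pdgfb UMIs of this class, or 35.1 CPM (28.5 to 42.9). The 105 cells led by the T cell genes Cd3e and Trbc1 held 1 Pdgfb UMI, and the 35 cells led by S100a9 held 0, which allows up to 27.1 CPM.

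Pdgfra, the alpha receptor, was concentrated in fibroblast-like cells. Their level in libraries 1 to 6 was 299.8, 191.5, 232, 253, 229.5 and 258 CPM, and that of VSMC-like cells 6.74, 6.44, 11.1, 17.5, 6.76 and 4.95. The classes lay far apart in every library, with a median log2 ratio of fibroblast-like over VSMC-like cells of 4.98 (3.85 to 5.69). Fibroblast-like cells held a median of 96.3% of a library's Pdgfra UMIs (95.0% to 97.9%). A Pdgfra UMI was found in 68.3% of fibroblast-like cells and 5.56% of VSMC-like cells, against 4.23% of leukocyte-like cells (2.70 to 6.28), and after thinning in 48.0%, 2.44% and 1.80%. The thinned VSMC-like share lay within the leukocyte-like interval (0.779 to 3.51), which rests on 8 of 445 cells. In the VSMC2-like part of these cells, described below, the thinned share was 4.60% (3.65 to 5.70). Whether the VSMC-like share is background was not tested.

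Pdgfrb, the beta receptor that marks mural cells in many tissues, was higher in fibroblast-like cells than in VSMC-like cells. Fibroblast-like cells of libraries 1 to 6 held 152, 96.9, 102, 99.5, 93.0 and 158 CPM, and VSMC-like cells 67.7, 54.3, 65.1, 69.2, 46.0 and 67.0. The classes did not overlap, and libraries 1 and 6 stood above the other fibroblast-like values. The median log2 ratio was 0.92 (0.52 to 1.24), higher in 6 of 6 libraries and just short of 2-fold. It was 1.01 without library 2, 3 or 4 and 0.83 without library 1, 5 or 6. Pdgfrb UMIs were found in 43.7% of fibroblast-like and 35.1% of VSMC-like cells (25.6% and 17.0% after thinning), both above the 4.96% of leukocyte-like cells (2.02% after thinning). Endothelial-like cells held 13.8 to 30.5 and leukocyte-like cells 0 to 17.8 CPM.

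Read against all genes, 3 of the 6 passed the rule of a 2-fold median difference with the same direction in all 6 libraries between fibroblast-like and VSMC-like cells. Pdgfra was among the 13.6% of 8732 genes higher in fibroblast-like cells, and Pdgfa and Pdgfd were among the 9.26% that were lower. Pdgfb did not reach 10 CPM in either class and was outside these 8732 genes. All 6 genes kept 1 direction in all libraries, as did 38.1% of genes in the higher and 34.6% in the lower direction, and the median of all genes was 0.02. For the lack of overlap between these classes in Pdgfa, Pdgfd, Pdgfra and Pdgfrb, no share over all genes is given. In the endothelial-like comparison with VSMC-like cells, Pdgfa (−2.13), Pdgfd (−1.19), Pdgfrb (−1.73) and Pdgfc were among the 12.5% of genes called lower, and no fold is given for Pdgfc, with 4 UMIs.

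**Figure D2:**
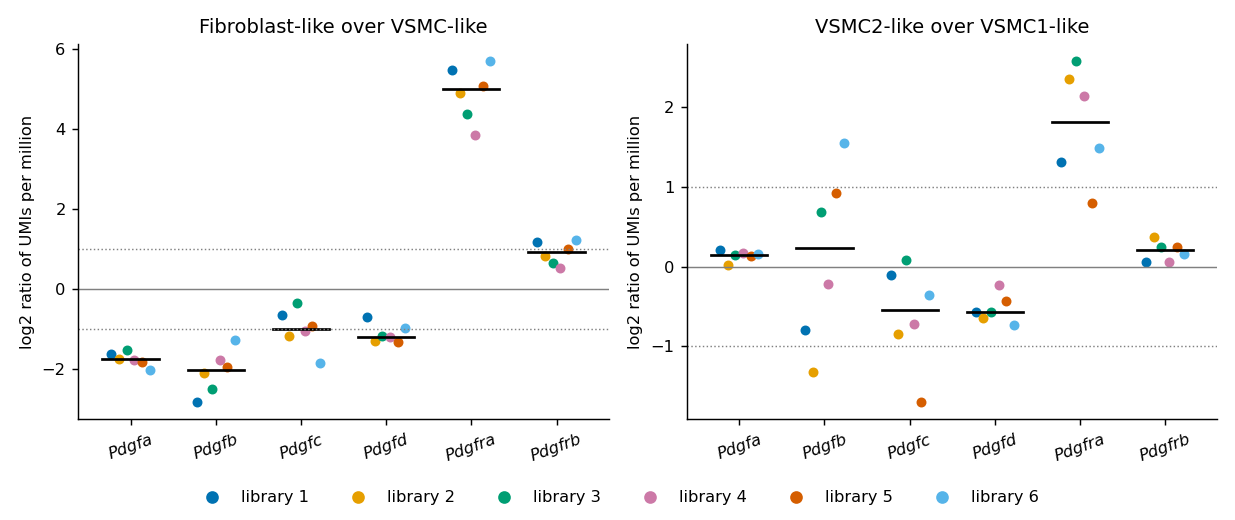
Log2 ratio of CPM (vertical axes) of each gene, fibroblast-like over VSMC-like cells on the left and VSMC2-like over VSMC1-like cells on the right; points are libraries, black lines are medians, the solid grey line is no difference and dotted lines mark 2-fold. On the left the 4 ligands lie below 0 and both receptors above 0 in all 6 libraries; on the right the Pdgfra median is 1.81, and its direction and that of Pdgfrb turn under other clusterings and filters.

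Fibroblast-like cells divided into 5 subclusters, called here by their 3 leading genes, and 2 of them differed in opposite directions in the alpha receptor and its ligand Pdgfa. In Cpz/F3/Cpxm2 cells (4626 cells) Pdgfra was at 339, 250.2, 294, 351, 310.4 and 314 CPM in libraries 1 to 6, and in Wif1/Cd74/Spp1 cells (1674) at 71.9, 63.8, 41.7, 86.2, 80.7 and 105. Pdgfa was at 50.8, 37.4, 48.5, 55.8, 47.05 and 39.2 in the former and at 159, 93.3, 143, 146, 143 and 76.2 in the latter. Neither gene's values overlapped between these subclusters, which clustering sets apart by expression. No share over all genes is given for comparisons among the fibroblast subclusters, or among the 5 VSMC subclusters below. Has1/Spon2/Ifi211 cells (5625) had a median Pdgfra level of 262 with the lowest Pdgfa level, 32.3, and Cytl1/Prss12/Tfap2b cells (1116) had 217 and 58.6. The Wif1/Cd74/Spp1 cells lay above the Has1/Spon2/Ifi211 cells in Pdgfa, Pdgfc and Pdgfrb in 6 of 6 libraries, with a Pdgfc median of 18.4 against 3.30.

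Pdgfrb and Pdgfd both had their highest median in Cpz/F3/Cpxm2 cells. These held medians of 143 CPM of Pdgfrb and 102 of Pdgfd, and Has1/Spon2/Ifi211 cells 73.1 and 45.3; for Pdgfrb the former were higher in 6 of 6 libraries. Pdgfd was lowest in Wif1/Cd74/Spp1 cells, at 25.8, below Has1/Spon2/Ifi211 cells in 5 of 6 libraries, while Pdgfrb was at 112 there. Cytl1/Prss12/Tfap2b cells, at 119, and Wif1/Cd74/Spp1 cells changed places in Pdgfrb between libraries. The remaining subcluster, Myh11/Cnn1/Acta2 (434 cells), was led by VSMC markers, 5 of them among its first 10 genes, and 40.3% of its cells were marked as doublets. Its Pdgfra level was 154 and its Pdgfa level 108, between those of the classes, and it is named here by its genes only.

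A finer division set these patterns further apart. Dpp4/Smpd3/Basp1 cells (1106), with Dpp4 and Cd248 known from stromal progenitor cells, had the highest Pdgfra median, 371 CPM, and the lowest Pdgfa median, 15.1. Spp1/Chad/Cilp2 cells (861), led by genes of cartilage and tendon matrix, had 57.8 of Pdgfra, 156 of Pdgfa, 19.0 of Pdgfc and 131 of Pdgfrb. Cd74/H2-Eb1/H2-Aa cells (810), led by antigen presentation genes, had the lowest Pdgfd median, 10.9, in the 5 libraries with 20 or more such cells.

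VSMC-like cells also divided into 5 subclusters, and the ligands varied less among them. Median Pdgfa levels were 210 CPM in Thbs1/Pgam2/Cygb cells (1994), 196 in Igfbp2/Casq1/Ccdc42 cells (4228), 195 in Atf3/Socs3/Fos cells (3175), 194 in Rgs5/Prrx2/Sfrp2 cells (612) and 149 in Cd74/H2-Aa/H2-Eb1 cells (367, 5 libraries). The middle 3 changed places between libraries, while the lowest lay under the Rgs5/Prrx2/Sfrp2 cells in 5 of 5. Pdgfd was lowest in Thbs1/Pgam2/Cygb cells, at 110 against 155 in Igfbp2/Casq1/Ccdc42 cells, and lower in 6 of 6 libraries. The Atf3/Socs3/Fos subcluster was led by immediate early genes, with a summed level of 12 dissociation stress genes of 20797 CPM against 5575 in Igfbp2/Casq1/Ccdc42 cells, and the part of this in the values was not tested.

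Pdgfc stood out in 1 VSMC subcluster. Rgs5/Prrx2/Sfrp2 cells held 26.4, 18.1, 31.3, 14.4, 24.8 and 17.1 CPM of Pdgfc in libraries 1 to 6, and Igfbp2/Casq1/Ccdc42 cells, the next in order, 14.9, 6.50, 13.8, 12.2, 13.7 and 9.55. The former were higher in 6 of 6 libraries. The same cells had the highest Pdgfrb median of this division, 77.5, above Igfbp2/Casq1/Ccdc42 cells (56.7) in 6 of 6 libraries and above Thbs1/Pgam2/Cygb cells (72.9) in 5 of 6. Rgs5 is a pericyte and mural cell marker, but no cluster was led by the pericyte markers Higd1b or Vtn. Of 612 Rgs5/Prrx2/Sfrp2 cells, 2 had a Higd1b UMI and 0 a Vtn UMI. The pericyte markers Kcnj8 (19.9% of cells) and Abcc9 (35.3%) had their highest shares of the 5 VSMC subclusters there. In Cpz/F3/Cpxm2 fibroblast-like cells these shares were 43.3% and 70.8%. Of the 115 VSMC-like cells with a Higd1b UMI, 110 were Thbs1/Pgam2/Cygb cells. The 115 cells held 81.7 CPM of Pdgfrb (64.9 to 101.5) against 59.7 (58.1 to 61.4) in the rest, and 11.1 of Pdgfb (5.54 to 19.8, from 11 UMIs) against 3.15.

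**Figure D3:**
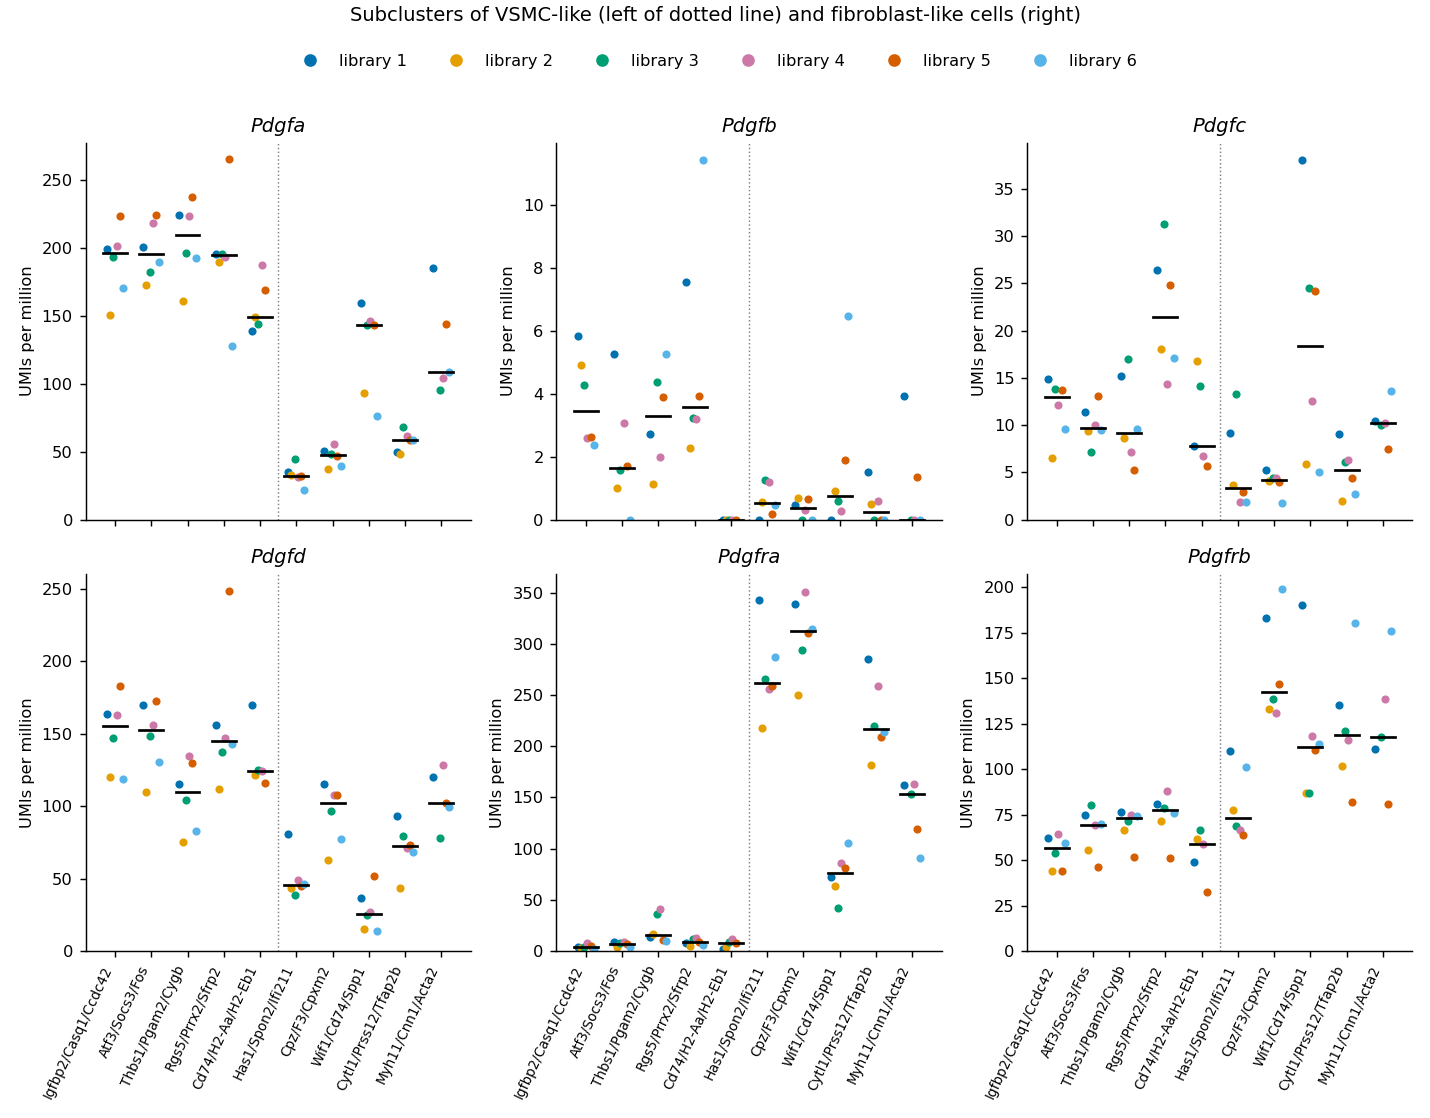
Level of each gene in CPM (vertical axes, linear, from 0, differing between panels) in 5 subclusters of VSMC-like cells and 5 of fibroblast-like cells, named by their leading genes; points are libraries with at least 20 cells of the subcluster and black lines are medians. Among fibroblast-like cells, Wif1/Cd74/Spp1 cells have the lowest Pdgfra median (76.3) and the highest Pdgfa median (143), and among VSMC-like cells Rgs5/Prrx2/Sfrp2 cells have the highest Pdgfc median (21.5).

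The study divides VSMCs into VSMC1, with transcripts of the ascending aorta, and VSMC2, with transcripts of the root. Reclustering of the VSMC-like cells into 2 subclusters gave 8605 VSMC1-like cells, with higher Tes and Ptprz1, and 1771 VSMC2-like cells, with higher Enpep and Notch3. Pdgfd was lower in VSMC2-like cells of every library, as were 21.2% of the 8041 genes tested, while 13.9% were higher in every library. It was at 111, 74.2, 97.9, 133, 132 and 75.0 CPM in VSMC2-like cells of libraries 1 to 6 and at 164, 116, 145, 157, 179 and 125 in VSMC1-like cells, and the ranges overlapped across libraries. On the log2 scale the median ratio of VSMC2-like to VSMC1-like cells was −0.57 (−0.73 to −0.24), and between −0.58 and −0.47 under the other normalizations, clusterings and cell choices that gave a value. Pdgfa was slightly higher in VSMC2-like cells (median log2 ratio 0.15, 0.02 to 0.21, 6 of 6 libraries), and Pdgfc was lower in 5 of 6 libraries (−0.54, −1.70 to 0.08).

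The receptors gave values in this comparison that turned with the choice of cells. Pdgfra was at 14.6, 17.7, 38.4, 42.2, 10.5 and 10.4 CPM in VSMC2-like cells and 5.83, 3.41, 6.38, 9.51, 6.07 and 3.63 in VSMC1-like cells. The ratio had a median of 1.81 on the log2 scale (0.79 to 2.57), and Pdgfra was the only one of the 6 genes past the 2-fold rule, among 3.88% of 8041 genes called higher and 2.29% called lower. Without those cells that had a UMI of Higd1b or Vtn, or at least 2 of the fibroblast gene Lum, the ratio was −0.14, with 3 of 6 libraries above 0. With log-normalized clustering it was −0.55 and with doublets removed 0.64. Pdgfrb was at 0.20 (0.05 to 0.37, 6 of 6 libraries) and turned to −0.04 and −0.24 under the first and second of these alternatives.

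Fibroblast transcripts were also higher in VSMC2-like cells, by amounts that differed between libraries. Summed fibroblast markers were at 1567 to 6290 CPM in VSMC2-like cells and 1365 to 2258 in VSMC1-like cells. In library 3 they were at 5516 against 2117, with a Pdgfra log2 ratio of 2.57. In library 6 they were at 1567 against 1490, with a ratio of 1.49. The part of these transcripts in the Pdgfra ratio was not tested. Of the 7 markers 5 were past the 2-fold rule, and 9.82% of VSMC2-like against 1.29% of VSMC1-like cells were marked as doublets. Among VSMC2-like cells without a Lum UMI (1037 cells) Pdgfra was at 3.37 CPM (2.20 to 4.93), and among the 507 with 2 or more Lum UMIs, of which 29.6% were marked as doublets, it was at 61.5 (54.5 to 69.1). VSMC1-like cells gave 5.49 (4.88 to 6.16) and 12.4 (9.62 to 15.7) in the same order. In a finer division a subcluster led by Lum, Dcn and Cygb (770 VSMC-like cells, 23.4% marked as doublets) held 37.3 CPM of Pdgfra and 103 of Pdgfrb, and the Pgam2/Olfr558/Pln subcluster 3.39 and 48.1. In that division Pdgfrb of the Rgs5/Prrx2/Sfrp2 cells, at 78.2, also lay below that of Tnxb/Myo9b/Gm26699 cells, at 96.7, in 6 of 6 libraries.

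**Figure D4:**
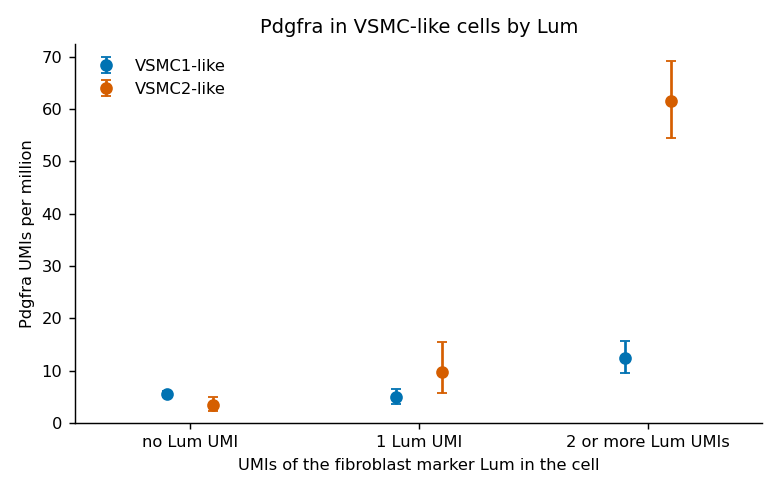
Pdgfra level in CPM (vertical axis, linear, from 0) in VSMC1-like and VSMC2-like cells with no, 1, or 2 or more UMIs of the fibroblast marker Lum (horizontal axis), over all libraries; bars are 95% Poisson counting intervals. VSMC2-like cells with 2 or more Lum UMIs are at 61.5, all other points are at or below 12.4.

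Most of the measured proteases from a list of those that release active PDGFs were higher in fibroblast-like cells. Of 6 such genes 4 reached 10 CPM, and the ratios cover only those. Among them 3 were called higher and 0 lower, against 13.6% of all genes tested called higher and 9.26% lower. Their median log2 ratio was 2.09, against 0.02 over all genes. Pcsk6 (4.0) and Pcsk5 (1.11) encode proprotein convertases and Plat (3.07) tissue plasminogen activator, which cleaves PDGF-C; Furin, a convertase, was at −0.38. Of 7 binding partners and modulators 4 were called higher and 1 lower: the co-receptor Nrp1 was at 3.19, the matrix protein gene Efemp1 at 5.32, Thbs1 at 0.68, and Cspg4, the NG2 proteoglycan that binds PDGF-A, at −3.55.

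Of 23 genes of receptor signal transduction 3 were called higher in fibroblast-like cells, near the share of all genes, and 1 lower, with a median of 0.35. The kinase gene Fyn (2.98) and Pik3r1 (1.24), the regulatory subunit of PI3 kinase, were highest, and Src (−0.84) and the catalytic subunit Pik3cb (−2.39) lowest. Of 10 feedback genes 3 were called higher and 0 lower, with Spry1 at 2.11, Dusp6 at 1.45, Cbl at −0.35 and Acp1 at −0.38. Among 9 measured of 15 related receptors and ligands 6 were called higher and 0 lower, with Vegfd at 4.40, Flt3l at 3.38, Flt1 at −0.26 and Vegfb at −0.73, and among 8 known target genes 6 and 0, with the hyaluronan synthase Has2 at 6.24, the chemokine Ccl2 at 5.68, Fos at 0.44 and Srf at −0.91. Fos, Egr1 and Ier2 of this list are also dissociation stress genes, of which 6 of 12 were called higher in fibroblast-like cells.

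Between VSMC2-like and VSMC1-like cells, 3.88% of all genes tested were called higher and 2.29% lower. Of the proteases 0 of 3 were called higher and 1 lower, Pcsk5 (−1.33), with Plat at 0.38 and Furin at −0.15. Of the modulators 1 of 7 was called higher, Thbs1 (4.0), with Efemp1 at 2.11, Cspg4 at −0.35 and Sparc at −0.42. Signal genes gave 0 of 21 higher and 1 lower, Pik3cb (−1.18), with Gab1 at 0.74, Stat3 at 0.67 and Src at −0.58. Feedback genes gave 2 of 10 higher, the receptor tyrosine kinase antagonists Spry1 (1.10) and Spry4 (1.08), with Acp1 at −0.13 and Ptprj at −0.83. Related ligands and receptors gave 2 of 8 higher, the growth factor genes Pgf (3.77) and Vegfd (1.83), with Kitl at 0.02 and Vegfb at −0.13. Target genes gave 3 of 7 higher, with Ccl2 at 2.33 in 5 of 6 libraries, Ier2 at 1.29, Fos at 0.62 and Srf at 0.0028. VSMC2-like cells also had summed dissociation stress genes of 17356 CPM against 10774, and they held more fibroblast transcripts, as given above. Of the genes named here as called higher, Pgf (2.19), Vegfd (4.40), Spry1 (2.11) and Ier2 (1.44) were also called higher in fibroblast-like than in VSMC-like cells. Thbs1 (0.68) and Spry4 (0.94) were not. The part of the stress genes or of the fibroblast transcripts in these values was not tested.

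Within single cells, the members were found together slightly more or less often than apart. In fibroblast-like cells thinned to 3000 UMIs, Pdgfrb was found in a median of 25.6% of cells with Pdgfra and 23.3% of cells without it, higher in 6 of 6 libraries. Pdgfra was found in 41.2% of cells with Pdgfa and 49.2% of cells without, lower in 6 of 6. In VSMC-like cells Pdgfd was found in 35.4% of thinned cells with Pdgfa and 34.5% without, higher in 3 of 6 libraries, whereas the same shares before thinning were 66.9% and 55.8%, higher in 6 of 6. Pdgfrb was found in 19.9% of thinned VSMC-like cells with Pdgfa and 17.2% without, higher in 6 of 6, and in 17.4% with Pdgfd and 18.9% without, higher in 2 of 6.

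GFP is the reporter of the tracer, and its UMIs were found in 63 to 156 VSMC-like and 41 to 103 fibroblast-like cells in each of libraries 1 to 4. In VSMC-like cells Pdgfa was lower in cells with a GFP UMI in 4 of 4 libraries, at 172, 154, 144 and 202 CPM against 204, 161, 190 and 210. In fibroblast-like cells Pdgfra was lower with GFP in 4 of 4, at 214, 161, 194 and 245 against 304, 192, 232 and 254, and Pdgfrb higher in 4 of 4, at 161, 115, 144 and 111 against 152, 96.3, 101 and 99.1. Pdgfc went in opposite directions in the 2 classes, from 3 to 18 UMIs in the cells with GFP of a library. It was lower with GFP in VSMC-like cells in 4 of 4, at 11.2, 8.21, 6.15 and 5.17 against 15.4, 9.05, 14.7 and 10.5, and higher in fibroblast-like cells in 4 of 4, at 16.95, 17.9, 18.8 and 5.83 against 9.22, 3.57, 11.2 and 4.90. Pdgfb was higher with GFP in VSMC-like cells in 4 of 4, from 2 to 15 UMIs. The fibroblast-like cells with GFP held 0 Pdgfb UMIs. The far more numerous fibroblast-like cells without GFP held only 7, 11, 12 and 16, too few for a comparison. By any amount, 7.86% of 7917 genes were higher and 11% lower in all 4 libraries in VSMC-like cells, and 7.94% and 7.99% of 8449 genes in fibroblast-like cells. The ranges overlapped between libraries for Pdgfa, Pdgfra, Pdgfrb and Pdgfc, and for Pdgfb in VSMC-like cells. Cells with a GFP UMI also had more UMIs in every library, a median of 7280 to 12849 against 6304 to 12168 in VSMC-like cells, and a cell without a GFP UMI can still carry the reporter.

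Across 13 subclusters and classes, the genes whose profile was most like that of each member were found by the correlation of log2(CPM + 1), given as a description over points that share libraries. For Pdgfra they were Cpxm1 (r = 0.98), the Hedgehog pathway factor Gli1 (0.97) and Glt8d2 (0.97), and for Pdgfrb Trip6 (0.97), Cnpy2 (0.97) and Mmp16 (0.97). For Pdgfa they were Dlgap1 (0.97), Slc30a9 (0.97) and Rragb (0.96), for Pdgfd Esyt2, Mat2b and Auts2 (0.96 each), for Pdgfc Atg10 (0.91), Fam110b (0.89) and Wls (0.88), and for Pdgfb Itsn2 (0.95), Cdk11b (0.94) and Abcf1 (0.94), among 11518 genes. Among the members themselves, the receptors had r = 0.76, Pdgfa and Pdgfc 0.72, Pdgfd and Pdgfrb 0.62, and Pdgfa and Pdgfra −0.59.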

How the data were processed

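Single cells of 6 mice were profiled by scRNAseq, and the authors deposited 1 matrix of UMI counts per feature and cell, not normalized, made with Cell Ranger on mm10; the labels name version 6 and the matrix header 4.0.0. Nothing pairs the barcode numbers with mice, so samples could not be grouped by genotype.

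Cells with over 1000 and under 5000 genes, over 1500 and under 25000 UMIs and under 20% mitochondrial UMIs were kept (24972 of 30716 barcodes). Counts were normalized with SCTransform v2 per library (Seurat 5.3.0, sctransform 0.4.2, R 4.3.3) and integrated by reciprocal PCA on 3000 variable genes, without 75 genes (the members and their pathway), with 30 components and a resolution of 0.25. Cells marked as doublets by scrublet (scanpy 1.11.5), or by the highest 5% of scores in libraries 2 and 5, were kept. Levels are CPM, summed UMIs scaled to 1000000 UMIs of a class, in libraries with at least 20 of its cells, log2 ratios carry a prior of 0.5 UMI, and the median over libraries is given with its range. A gene with at least 10 CPM in either class was called when its median ratio was 2-fold or more with 1 direction in all libraries. Intervals are 95% exact binomial or Poisson. Thinning used the 22935 cells with 3000 UMIs or more. Alternatives were TMM factors (edgeR 4.0.16), other filters, priors, clusterings and cell choices. The scripts were tested on simulated data.

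The members and lists were chosen with earlier results of these data known. The genes named are the members, the leading 3 genes of each subcluster, the highest 2 and lowest 2 genes of each pathway list by ratio in both comparisons of classes and VSMC subclusters, and the 3 genes most like each member. The leading genes of the glia-like cluster are not reported here. Chosen after the values were seen were the scoring that named clusters (the class with the highest mean marker level, with at least 3 markers in 10% of cells), the use of log-normalized clustering for the glia-like and cardiomyocyte-like cells, resolutions from 0.01 for the division of VSMC-like cells, the ratios of endothelial-like and leukocyte-like over VSMC-like cells, and the share of all genes that differed between cells with and without GFP. Subclusters come from the coarsest resolution with at least 5, or for the finer division 7, of 2% or more of a class.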

Additional observations from a re-analysis of the deposited data

Results flagged for a closer look

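Among 36 values of a gene in a class, 3 had 1 library far from the others of that class, where chance gives about 5% of such values. Pdgfb in VSMC-like cells was at 5.30 CPM in library 1 and at 2.44 to 3.38 in the other 5; the summed endothelial markers in the VSMC-like cells of that library, 156 CPM, lay within the 89.6 to 283 of all libraries. Pdgfb in fibroblast-like cells was at 1.18 CPM in library 6, from 10 UMIs in 5 cells, of which 9 UMIs lay in the 37 Spp1/Chad/Cilp2 cells of that library. Pdgfra in endothelial-like cells was at 82.2 CPM in library 3, from 62 UMIs in 22 cells, where summed fibroblast markers were 4293 CPM against 298, 391, 2621 and 643 in the endothelial-like cells of libraries 1, 2, 4 and 5; the part of these transcripts in the value was not tested.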

How the results depend on the processing

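No paired analysis was possible because nothing pairs a barcode number with a mouse, so the replicate numbers of the labels could not be used. Of the values recomputed, 209 moved by less than the spread over libraries (counts by less than 1.5 times), 27 moved by more and 6 receptor ratios reversed. These 6 were of the VSMC2-like over VSMC1-like ratio of the receptors: with log-normalized counts and no integration Pdgfra was −0.55 and Pdgfrb −0.24, without cells with Higd1b, Vtn or at least 2 Lum UMIs −0.14 and −0.039, and, chosen after seeing the data, without the subclusters that mix VSMC and fibroblast markers −0.67 and −0.27. The cause was not tested. Pdgfra was 0.64 without doublets, Pdgfrb 0.073 without shared barcodes (also chosen after seeing the data) and Pdgfa 0.24 without the Higd1b, Vtn and Lum cells. The fibroblast-like over VSMC-like ratio of Pdgfra was 5.70 without cells holding at least 2 UMIs of the marker of the other class; Pdgfrb was then 1.02 and Pdgfc −1.03, past 2-fold. Reclustering VSMC-like cells with all genes kept never gave exactly 2 subclusters and so no ratio.

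With no filter on low values 3349 genes were called higher and 1406 lower in fibroblast-like cells, and 649 and 484 in VSMC2-like cells; at 50 CPM these counts were 517, 418, 116 and 64. Thinned to 3000 UMIs, the median share over libraries was 42.5% for Pdgfa, 3.48% for Pdgfc and 35.0% for Pdgfd in VSMC-like cells and 48.1% for Pdgfra and 24.1% for Pdgfrb in fibroblast-like cells. With at least 7 subclusters the log2 ratio of the highest over the lowest VSMC subcluster was 0.72 for Pdgfa, 0.69 for Pdgfd, 3.46 for Pdgfra (1.09 with 5 subclusters and no doublets) and 1.10 for Pdgfrb, and among fibroblast-like cells 3.37 for Pdgfa, 3.57 for Pdgfc, 3.26 for Pdgfd, 2.68 for Pdgfra and 1.24 for Pdgfrb.

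Leaving out 1 library, the fibroblast-like over VSMC-like ratio ranged from −1.76 to −1.74 for Pdgfa, −2.09 to −1.93 for Pdgfb, −1.05 to −0.93 for Pdgfc, −1.20 to −1.18 for Pdgfd, 4.89 to 5.08 for Pdgfra and 0.83 to 1.01 for Pdgfrb. The VSMC2-like over VSMC1-like ratio ranged from 0.14 to 0.15 for Pdgfa, −0.21 to 0.68 for Pdgfb, −0.72 to −0.35 for Pdgfc, −0.57 to −0.56 for Pdgfd, 1.49 to 2.14 for Pdgfra and 0.16 to 0.24 for Pdgfrb. Pdgfb, at 0.23 with 3 of 6 libraries above 0, thus changed sign, at −0.21 without library 3, 5 or 6; it was also −0.70 with log-normalized counts, −0.13 without the Higd1b, Vtn and Lum cells and −0.60 without the mixed subclusters. Counts of called genes ranged from 1169 to 1209 higher and 807 to 820 lower in fibroblast-like cells, and from 287 to 325 and 181 to 197 in VSMC2-like cells. Depth limits Pdgfb and Pdgfc most, with 700 and 1636 UMIs in all.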
